A study of Rattus norvegicus with 40 samples.

Results

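The MHC class II genes of the rat were followed across 15 deposited comparisons of circulating and kidney T cells of the Dahl salt-sensitive (SS) rat, a strain bred for hypertension that appears on a salty diet. The set held 8 genes chosen by symbol: Cd74, RT1-Ba, RT1-Bb, RT1-Da, RT1-Db1, RT1-DMa, RT1-DMb and Ciita. A gene model carrying the symbol was found for 6 of the 8, among 31677 gene models in each table. No gene model carried the symbol RT1-DMa or RT1-DMb, so neither gene is reported. On build rn5 the RT1 genes lay on chromosome 20, with RT1-Bb from 6123271 to 6129548, RT1-Ba from 6146270 to 6150868, RT1-Db1 from 6167758 to 6177326 and RT1-Da from 6207783 to 6212754. Cd74 lay on chromosome 18 from 55305847 to 55315242, and Ciita on chromosome 10 from 4037679 to 4083966.

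RNA was sequenced in 40 libraries, each from a pool of 3 rats, with 4 pools for each of 10 groups. Kidney T cells and circulating T cells were taken from the same 5 kinds of rats. These were SS/CRL rats at 10 weeks of age on high-salt chow (HS) for 3 weeks, SS/CRL rats at 10 weeks on low-salt chow (LS), SS/MCW rats at 10 weeks on HS for 3 weeks, SS/MCW rats at 10 weeks on LS and SS/MCW rats at 7 weeks on LS. SS/CRL and SS/MCW are the rat types of the labels, and what else may differ between them (supplier, housing, diet before the study) is not given there. No allele is named for any group, and how the T cells were isolated is not given in the sources used here.

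MHC class II molecules are heterodimers of an alpha and a beta chain that carry peptides from ingested protein to the surface for CD4+ T cells to read. In the rat the RT1-B molecule is made from RT1-Ba and RT1-Bb, and the RT1-D molecule from RT1-Da and RT1-Db1. Cd74 encodes the invariant chain, which fills the groove and guides the dimer to the endosome, and the RT1-DM dimer then exchanges its last fragment for peptide. Ciita encodes the coactivator that switches the whole set on through the X and Y boxes of its promoters, which RFX, CREB and NF-Y proteins bind. B cells, dendritic cells and macrophages hold class II at high levels, and activated T cells of the rat, unlike those of the mouse, can also carry it.

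The boxes are shown because they are the promoter elements that Ciita acts through. They were searched for in RefSeq promoters of assembly GRCr8, a window from 250 bases before to 50 bases after each annotated start, which 6 of the 8 genes had (not RT1-DMb and Ciita). The search covered both strands for CTGATTGG, a Y box with its flank, for ATTGG, its CCAAT core in reverse, and for AGNAAC, an X box core. CTGATTGG holds ATTGG, so the counts of these 2 motifs overlap. Stretches of 5 of the promoters are printed 5′ to 3′ on the strand of the gene, with CTGATTGG, CCAAT and AGNAAC in capitals.
Cd74: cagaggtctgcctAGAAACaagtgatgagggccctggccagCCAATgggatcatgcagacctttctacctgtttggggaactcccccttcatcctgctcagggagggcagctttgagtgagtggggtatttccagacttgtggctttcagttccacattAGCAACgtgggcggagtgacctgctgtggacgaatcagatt
RT1-Ba: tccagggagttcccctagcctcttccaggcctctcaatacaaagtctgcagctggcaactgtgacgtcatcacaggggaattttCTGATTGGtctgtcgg
RT1-Bb: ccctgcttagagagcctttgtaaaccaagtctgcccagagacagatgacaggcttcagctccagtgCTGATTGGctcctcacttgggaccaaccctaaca
RT1-Da: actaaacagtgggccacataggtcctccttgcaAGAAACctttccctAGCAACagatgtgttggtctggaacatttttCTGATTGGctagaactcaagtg
RT1-Db1: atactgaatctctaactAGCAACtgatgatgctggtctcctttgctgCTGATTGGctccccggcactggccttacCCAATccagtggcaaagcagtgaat
On GRCr8 the Cd74 stretch is chr18:56526976-56527175 on the plus strand. The others are chr20:4576927-4577026 for RT1-Ba and chr20:4515285-4515384 for RT1-Da on the plus strand, and chr20:4604149-4604248 for RT1-Bb and chr20:4560193-4560292 for RT1-Db1 on the minus strand.

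All 4 of the RT1 chain promoters printed above held the 8-letter motif, at 46 to 39 bases before the start in RT1-Ba, 64 to 57 in RT1-Bb, 52 to 45 in RT1-Da and 83 to 76 in RT1-Db1. The same letters stood in 3.50% of 33469 promoters. The core ATTGG stood in 6 of 6 promoters, RT1-DMa included, against 37.5% of all, and AGNAAC in 4 of 6 against 48.6%. In Cd74 the CCAAT core lay 189 to 185 bases before the start, between an AGAAAC at 217 to 212 and an AGCAAC at 71 to 66. A match describes the letters only, and these are the letters of the reference strain, not of SS rats.

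Levels are the authors' FPKM, fragment counts scaled by transcript length and for the amount sequenced, with 1 value per group in each table. The value of a group changed with the group it was compared with, so levels from different comparisons are not on a common scale. No spread among the 4 pools can therefore be printed, and library depths are unknown. A group stood in 2 to 4 tables, levels are the median over its tables, and the highest table was 1.10 to 1.16 times the lowest for the same gene and group. For the class II genes, each kidney level was lowest, and each circulating level highest, where kidney was compared with blood. The medians therefore widen the gap between the tissues. A gene is said to have risen, fallen or been called only where the authors' deposited table gave it a q under 0.05. Log2 fold changes come from the FPKM of the same table. The label was checked against 16 T cell genes, whose summed level was 284 to 1055 FPKM in kidney groups and 5322 to 6631 FPKM in circulating groups. Macrophage genes (13 gene models) summed to 201.7 to 1069 FPKM in kidney and 48.5 to 66.6 FPKM in blood, where C1qb, a complement gene of tissue macrophages, was listed at 0 in 4 of the 5 groups and at 0.0103 FPKM in SS/MCW LS 7-week rats. Proximal tubule genes summed to 2208 to 10116 FPKM in kidney and at most 0.6 FPKM in blood. The kidney pools thus held transcripts typical of tubule cells and macrophages beside those of T cells, and in such bulk samples fewer cells of a type and less RNA per cell cannot be told apart.

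Cd74 was the most abundant of the class II transcripts in every group. It stood at 345, 306, 959.7, 625 and 392 FPKM in kidney cells of SS/CRL HS, SS/CRL LS, SS/MCW HS, SS/MCW LS 10-week and SS/MCW LS 7-week rats. In circulating cells of the same 5 kinds of rats it stood at 202, 181, 131, 105 and 134 FPKM. The lowest kidney value was above the highest circulating value, and the kidney SS/MCW HS group stood at the top. RT1-Da, the alpha chain of RT1-D, had 80.3, 83.2, 282, 139 and 124 FPKM in kidney and 63.0, 63.9, 42.4, 34.5 and 41.3 FPKM in blood in the same order. Its beta chain gene RT1-Db1 had 19.5, 23.7, 87.2, 40.6 and 35.0 FPKM in kidney against 15.5, 13.0, 10.7, 7.42 and 8.80 FPKM in blood. For both, too, the lowest kidney value exceeded the highest circulating one.

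The beta chain gene of RT1-B, RT1-Bb, had 39.0, 40.0, 143, 65.0 and 57.5 FPKM in kidney and 23.1, 22.8, 14.5, 13.1 and 14.0 FPKM in blood, in the order given for Cd74. Its alpha chain gene RT1-Ba had 16.6, 20.5, 48.6, 29.6 and 19.6 FPKM in kidney and 19.9, 19.1, 14.5, 11.3 and 13.5 FPKM in blood, so its ranges overlapped between the tissues. Ciita was low throughout, at 1.11, 0.513, 1.45, 0.650 and 0.706 FPKM in kidney and 0.759, 0.998, 0.432, 0.486 and 0.403 FPKM in blood, and these ranges overlapped as well. In kidney all 6 genes were highest in SS/MCW rats on HS, and the highest group was 2.83 (Ciita) to 4.47 (RT1-Db1) times the lowest. In blood the highest was 1.76 (RT1-Ba) to 2.48 (Ciita) times the lowest, and all 6 genes were higher in both SS/CRL groups than in any SS/MCW group.

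**Figure D1:**
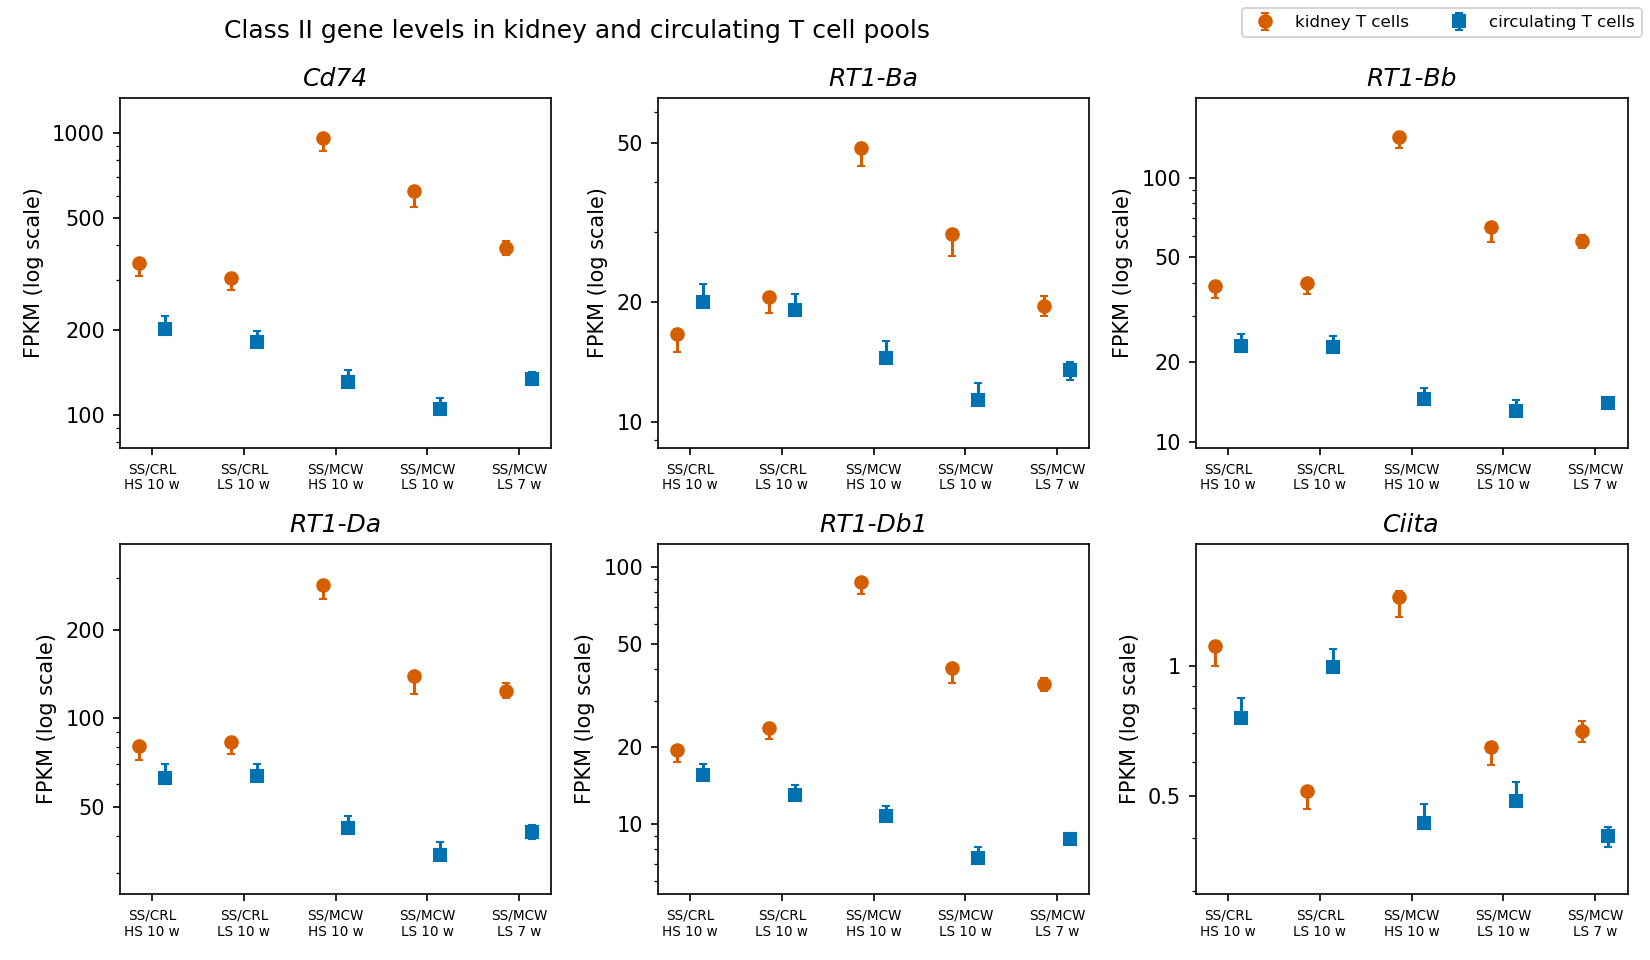
FPKM (log scale) of the 6 class II genes in kidney (circles) and circulating (squares) T cell pools of 5 kinds of rats, as the median over tables with bars from the lowest to the highest table; no spread among pools is given. Kidney SS/MCW HS pools are highest for every gene, up to 959.7 FPKM for Cd74, and circulating SS/CRL pools lie above circulating SS/MCW pools.

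The proportions of the chains differed between the tissues. Per length, RT1-Bb was 2.34, 1.95, 2.94, 2.2 and 2.93 times RT1-Ba in the kidney groups (SS/CRL HS, SS/CRL LS, SS/MCW HS, SS/MCW LS at 10 and at 7 weeks). In blood the ratio was 1.16, 1.19, 1.00, 1.15 and 1.04, so the 2 chains were near parity there and the ranges did not overlap. RT1-Da was 1.97 to 2.16 times RT1-Bb in kidney and 2.63 to 2.94 times in blood, again without overlap, and 4.05 to 6.35 against 2.93 to 3.35 times RT1-Ba. RT1-Da over RT1-Db1 ran from 3.24 to 4.12 in kidney and from 3.95 to 4.93 in blood, and Cd74 over RT1-Da from 3.16 to 4.50 in kidney and from 2.83 to 3.26 in blood, both with overlap. These are ratios of FPKM from 1 value per group and were not tested. RT1-Db2, a near copy that adjoins RT1-Db1, was listed at 0.17 to 1.96 FPKM in kidney and 0.11 to 0.30 FPKM in blood, and reads of the pair could be split between them.

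**Figure D2:**
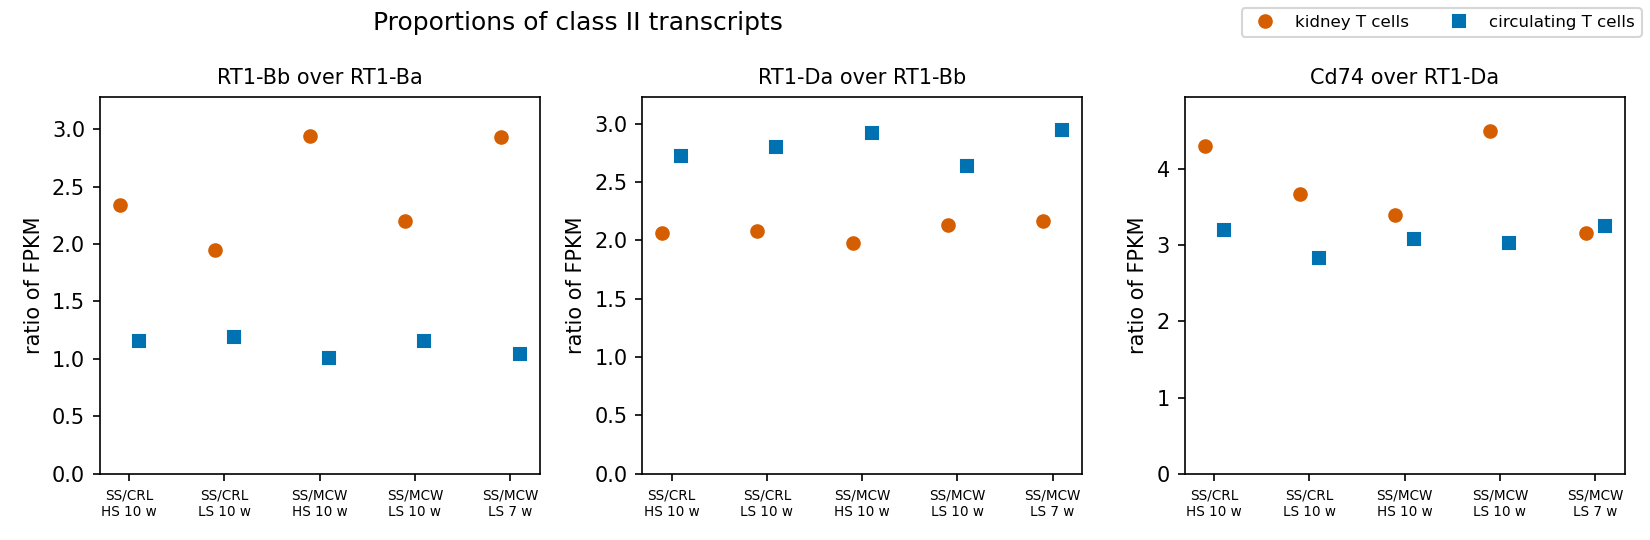
Ratios of FPKM between class II transcripts in kidney (circles) and circulating (squares) pools of 5 kinds of rats, on linear axes from 0. RT1-Bb over RT1-Ba lies between 1.95 and 2.94 in kidney and between 1.00 and 1.19 in blood.

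Kidney T cell pools were set against circulating pools of the same kind of rats to ask how the organ differs from blood. In SS/MCW rats 4 to 6 class II genes were higher in kidney in each comparison. On HS, Cd74 had 864 FPKM in kidney against 144 FPKM in blood, a log2 fold change of 2.59. RT1-Bb, with 129 against 16.0 FPKM, was 8.05-fold higher in kidney. RT1-Da had 254 against 46.7 FPKM and RT1-Db1 78.6 against 11.8 FPKM, log2 fold changes of 2.44 and 2.74. RT1-Ba (43.7 against 16.0 FPKM, 1.45) and Ciita (1.30 against 0.479 FPKM, 1.44) moved least. All 6 were higher, with q from 0.000183 to 0.0047 in the authors' deposited table, where 30.6% of 23439 gene models tested were higher in kidney.

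On LS at 10 weeks, 5 of 5 tested class II genes were higher in kidney of SS/MCW rats, against 26.6% of 21682 gene models. The log2 fold changes were 2.25 for Cd74, 1.06 for RT1-Ba, 1.98 for RT1-Bb, 1.68 for RT1-Da and 2.12 for RT1-Db1. Ciita, at 0.589 FPKM in kidney and 0.539 FPKM in blood, was not tested in the authors' deposited table. At 7 weeks 4 of 6 were higher, against 32.9% of 23120 gene models, with log2 fold changes of 1.39 for Cd74, 1.88 for RT1-Bb, 1.43 for RT1-Da and 1.83 for RT1-Db1. RT1-Ba had 18.5 against 14.2 FPKM and Ciita 0.666 against 0.425 FPKM, with q of 0.208 and 0.146 in the authors' deposited table.

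In SS/CRL rats fewer of the genes were called. On HS, 2 of 6 were higher in kidney, which is a share close to the 30.6% of 24977 gene models that were. These were Cd74, with 311 FPKM in kidney and 224 FPKM in blood (log2 fold change 0.47), and RT1-Bb, with 35.1 and 25.7 FPKM (0.45). RT1-Da, with 69.9 FPKM in blood, had a log2 fold change of 0.04, and RT1-Db1 had 17.4 against 17.2 FPKM and Ciita 1.00 against 0.844 FPKM. RT1-Ba had 15.0 FPKM in kidney and 22.2 FPKM in blood, with q 0.0543 in the authors' deposited table. On LS, Cd74 (278 against 199 FPKM, 0.48) and RT1-Bb (36.3 against 25.1 FPKM, 0.53) were higher, where 31.5% of 22643 gene models were. Ciita was lower, at 0.467 FPKM in kidney against 1.10 FPKM in blood (log2 fold change -1.23, q 0.0497 in the authors' deposited table), where 22% of gene models were lower. RT1-Ba (18.8 against 21.0 FPKM), RT1-Da (75.6 against 70.3 FPKM) and RT1-Db1 (21.4 against 14.2 FPKM) were not called.

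The median log2 fold change of the tested class II genes was 0.15 for SS/CRL HS, 0.30 for SS/CRL LS, 2.52 for SS/MCW HS, 1.98 for SS/MCW LS at 10 weeks and 1.41 at 7 weeks. Over all gene models tested it was 0.44, 0.37, 0.20, 0.23 and 0.21. When each deposited test statistic was given a normal p, adjusted by Benjamini-Hochberg over all gene models, none of the class II genes passed in the 2 SS/CRL comparisons, where 26.5% of gene models did on HS and 27.8% on LS. In SS/MCW rats 4 were higher by that p on HS, 3 on LS at 10 weeks (Cd74, RT1-Bb and RT1-Da) and 4 at 7 weeks, against 11.4%, 8.76% and 16% of all gene models.

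**Figure D3:**
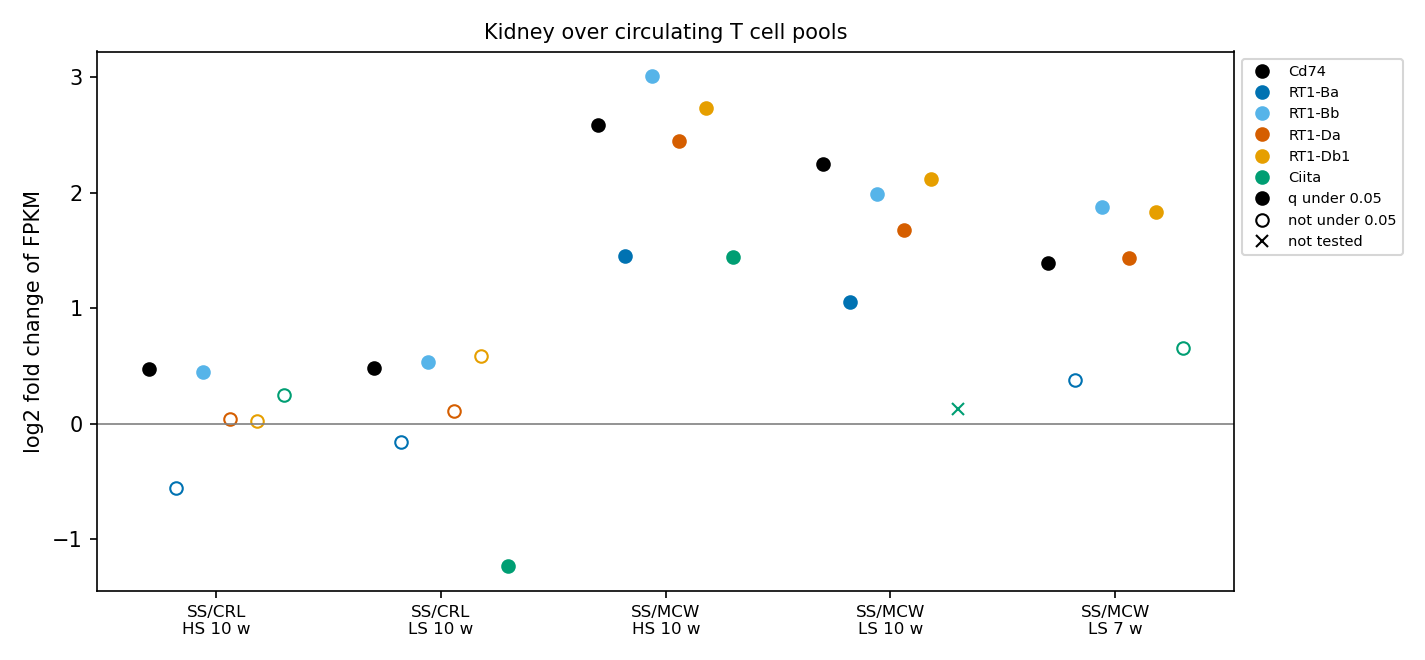
Log2 fold change of FPKM, kidney over circulating, for the 6 class II genes in 5 kinds of rats; filled points have q under 0.05 in the authors' deposited tables, open points do not, and a cross was not tested. SS/MCW points reach 3.01 for RT1-Bb on HS, and SS/CRL points lie between -1.23 and 0.59.

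Other class II and processing genes separated the tissues in different ways. RT1-DOb, a chain of the DO dimer that restrains RT1-DM and is best known from B cells, was lower in kidney in all 5 comparisons, at 0.785 to 5.11 FPKM against 15.4 to 19.1 FPKM in blood. RT1-DOa, the other chain, fell in 1 of the 5 (SS/CRL HS, 2.70 against 5.49 FPKM). Of 9 antigen processing genes 7 were higher and 1 lower in kidney of SS/CRL rats on either chow, and 8 higher and 1 lower in each SS/MCW comparison. The lower gene was Ctss each time, the protease that trims the invariant chain in professional antigen-presenting cells, with 11.3 to 68.3 FPKM in kidney and 82.9 to 108 FPKM in blood. Ifi30, a lysosomal thiol reductase of antigen processing, was higher each time, at 73.9 to 123 FPKM against 11.8 to 17.2 FPKM. Ctsl1 and Ctsh, lysosomal proteases also abundant in tubule cells, were higher in all 5 comparisons, with log2 fold changes of 4.50 to 5.89 for Ctsl1 and 5.49 to 6.59 for Ctsh.

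Among the 7 genes of the X and Y box proteins, between 2 and 5 were lower and at most 1 was higher in kidney. Rfx5, which together with Rfxap and Rfxank forms RFX, was at 15.3 to 23.3 FPKM in kidney and 21.2 to 22.9 FPKM in blood and was lower in 2 of the 5 (SS/CRL HS and SS/MCW LS at 7 weeks). Rfxap and Creb1 were lower in all 5 comparisons, with log2 fold changes of -1.41 to -1.07 for Rfxap and -2.40 to -1.46 for Creb1. Of 9 genes of the interferon gamma axis, which induces Ciita, 5 to 7 were lower. Ifng itself was higher in kidney of SS/MCW rats on HS (8.22 against 1.16 FPKM) and not called in the other 4 comparisons. In the class I pathway 9 to 12 of 15 tested genes were lower and at most 1 higher in kidney, with B2m, the class I light chain gene, at 352 to 936 FPKM against 2591 to 3003 FPKM.

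Marker genes of other cells moved with these comparisons. In kidney 15 of 16 T cell genes were lower in all 5 comparisons, and 9 to 13 of 11 to 13 tested macrophage gene models were higher. B cell genes went both ways, with 1 higher and 5 lower of 11 tested in SS/CRL on HS, 2 and 2 of 10 in SS/CRL on LS, 1 and 5 of 11 in SS/MCW on HS, 2 and 1 of 9 in SS/MCW on LS at 10 weeks, and 1 and 7 of 10 at 7 weeks. Cd79b was lower in all 5, with 1.77 to 4.85 FPKM in kidney against 13.0 to 27.1 FPKM in blood. Blnk was higher in all 5, and Pax5 in SS/CRL on LS and SS/MCW on LS at 10 weeks. These 2 genes, at 16.2 to 40.8 and 12.1 to 30.9 FPKM in kidney, made up most of the B cell list's summed level of 47.6 to 59.0 FPKM there. The part of these cells in the class II differences was not tested. Per length, Cd74 was 8.70 to 15.3 times Cd3e, which encodes CD3 epsilon, in kidney and 0.149 to 0.273 times in blood.

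The rat types were compared in kidney cells on each chow. On HS 5 of 6 class II genes fell in SS/CRL kidney pools, all but Ciita. Cd74 stood at 354 FPKM in SS/CRL and 990.3 FPKM in SS/MCW, a log2 fold change of -1.48. RT1-Ba had 17.1 against 50.2 FPKM (-1.55) and RT1-Bb 40.0 against 148 FPKM (-1.88). RT1-Da had 82.3 against 291 FPKM (-1.82), and RT1-Db1 had 20.0 against 90.0 FPKM, the largest fall of the set at -2.17. SS/CRL pools held 0.222 (RT1-Db1) to 0.358 (Cd74) times the SS/MCW level of these 5 genes, with q 0.00149 in the authors' deposited table. Ciita, at 1.14 against 1.5 FPKM, was not called, with q 0.746 in the authors' deposited table. Lower calls were thus made for 5 of 6 class II genes, against 2.97% of 22692 gene models, and the median log2 fold change was -1.69 against 0.12 over all.

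These calls rest on the p of the authors' deposited table, which stood at 5e-05, the lowest value it takes, for all 5 genes. A normal p taken from the test statistic and adjusted over all gene models was 0.125 for RT1-Bb, 0.183 for RT1-Da, 0.80 for RT1-Db1, 0.869 for Cd74 and 1.00 for RT1-Ba, so that none of them passed, where 0.0788% of gene models were lower by that p.

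Leukocyte genes fell beside class II in SS/CRL kidney pools on HS. The fall was shared by 14 of 15 tested T cell genes (median log2 fold change -2.05), among them Cd3e with 23.3 against 114 FPKM, and by 8 of 12 macrophage gene models (-2.18), among them Csf1r with 12.8 against 74.8 FPKM. No B cell gene of 6 tested was called (median -0.68). Of 3 dendritic cell genes tested, Itgax and Clec10a fell. Of 8 endothelial genes 2 rose, and of 7 proximal tubule genes 2 rose. The part of these shifts in the class II difference was not tested.

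Of the genes that serve class II, 4 of 9 antigen processing genes fell in SS/CRL kidney pools on HS. These were Ctss (11.6 against 70.6 FPKM, log2 fold change -2.60), Ctsz (17.4 against 79.6 FPKM, -2.19), Ctsd (-0.82) and Ifi30 (77.0 against 127 FPKM, -0.72). RT1-DOb had 0.803 against 5.29 FPKM and fell by 2.72 on the log2 scale, 1 of 3 other class II genes tested. None of the 7 genes of the X and Y box proteins was called, with Rfx5 at 20.8 FPKM in SS/CRL and 23.9 FPKM in SS/MCW. In the interferon gamma axis 1 of 9 fell, the receptor chain gene Ifngr1 (20.6 against 79.1 FPKM). Class I pathway calls were 4 of 15, all lower and led by Psmb8 (37.2 against 114 FPKM) and Tap1, which shares its gene model with Tap2 (13.5 against 37.6 FPKM). Of 8 genes for class II partners on T cells and for costimulation, Ctla4, Cd4 and Lag3 fell, and Cd40, a receptor of antigen-presenting cells, rose (12.4 against 5.45 FPKM). Cd4 and Lag3 encode receptors that bind class II.

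On LS none of the 5 tested class II genes was called between the rat types in kidney, where 1.81% of 18032 gene models were. All 5 values were lower in SS/CRL. Cd74 had 306 FPKM in SS/CRL against 619 FPKM in SS/MCW, a log2 fold change of -1.02, with an unadjusted p of 0.0296 and q 0.412 in the authors' deposited table. RT1-Bb had 40.0 against 64.4 FPKM, with an unadjusted p of 0.044 in the authors' deposited table. RT1-Ba (-0.51), RT1-Da (-0.72) and RT1-Db1 (-0.76) had unadjusted p of 0.0519 or more in the authors' deposited table. Of the leukocyte markers, C1qb (5.26 against 42.9 FPKM) fell among 11 macrophage gene models and Cd3d among 14 T cell genes, and their part in these values was not tested.

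In circulating cells the difference between the rat types ran the other way. On LS, Cd74 had 181 FPKM in SS/CRL and 106 FPKM in SS/MCW, a log2 fold change of 0.77. RT1-Ba had 19.1 against 11.5 FPKM (0.73) and RT1-Bb 22.8 against 13.3 FPKM (0.78). RT1-Da had 63.8 against 35.0 FPKM (0.87), and Ciita had 0.996 against 0.493 FPKM (1.01). These 5 rose with q 0.0144 in the authors' deposited table. RT1-Db1 had 12.9 against 7.52 FPKM, a log2 fold change of 0.78 like the others, with q 0.165 in the authors' deposited table.

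Higher calls were made for 5 of 6 class II genes on LS, against 0.412% of 17004 gene models, and their median log2 fold change was 0.78 against -0.0074 over all. As in kidney the p in the authors' deposited table was 5e-05 for each call, and the normal p of the test statistic was 1.00 after adjustment and called none, where 0.0412% of gene models were higher by it. With a q under 0.01 the comparison called no gene model at all. A filter of at least 1 FPKM removed Ciita and kept the other 4 calls. With a pseudocount of 1 the log2 fold change of Ciita was 0.42.

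B cell genes rose with class II in SS/CRL blood on LS. Of 11 tested 7 were called, all higher, with a median log2 fold change of 0.82. Cd79b, a chain of the B cell receptor complex, had 23.2 against 13.2 FPKM, and Pax5, the B cell identity factor, had 12.6 against 6.14 FPKM. Ms4a1, the CD20 gene, had 5.79 against 3.04 FPKM and was not called. None of 16 T cell genes and none of 7 macrophage genes was called, and 1 of 3 dendritic cell genes rose (Itgax, 0.895 against 0.439 FPKM). None of 9 antigen processing genes, 7 genes of the X and Y box proteins, 15 class I pathway genes or 7 partner and costimulation genes was called. In the interferon gamma axis only the feedback inhibitor gene Socs1 was called of 9, and it fell (7.64 against 13.7 FPKM). Cd74 was 7.43, 7.79, 7.77, 8.02 and 6.94 times Cd79b in blood of SS/CRL HS, SS/CRL LS, SS/MCW HS, SS/MCW LS 10-week and SS/MCW LS 7-week rats, and 82.9 to 285 times in kidney. The part of B cells in the class II difference was not tested.

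**Figure D4:**
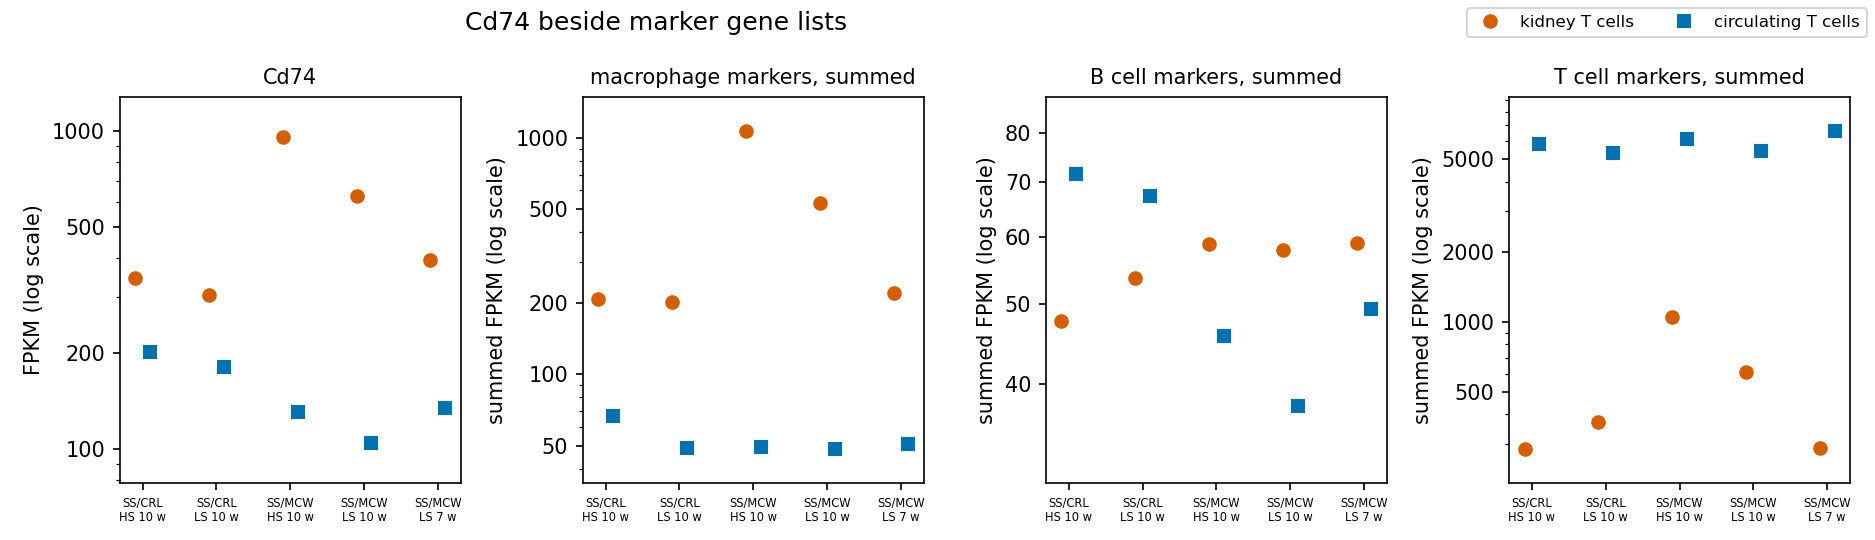
FPKM of Cd74 and summed FPKM of macrophage, B cell and T cell marker lists (log scales) in kidney (circles) and circulating (squares) pools of 5 kinds of rats. In kidney Cd74, macrophage and T cell sums are all highest in SS/MCW HS pools, and in blood Cd74 and the B cell sum are both highest in SS/CRL pools, at 202 and 71.5 FPKM on HS.

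On HS the class II genes of circulating cells had higher values in SS/CRL again, but none was called, where 0.241% of 16995 gene models were. Cd74 had 196 FPKM in SS/CRL and 131 FPKM in SS/MCW, with a log2 fold change of 0.58 and q 0.167 in the authors' deposited table. RT1-Bb (22.4 against 14.5 FPKM, 0.63), RT1-Da (61.1 against 42.4 FPKM, 0.53) and Ciita (0.736 against 0.432 FPKM, 0.77) followed it. RT1-Ba and RT1-Db1 had log2 fold changes of 0.42 and 0.49. The unadjusted p was under 0.05 for 5 of 6 in the authors' deposited table, the exception being RT1-Db1. None of 11 B cell genes was called, and their median log2 fold change was 0.59.

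**Figure D5:**
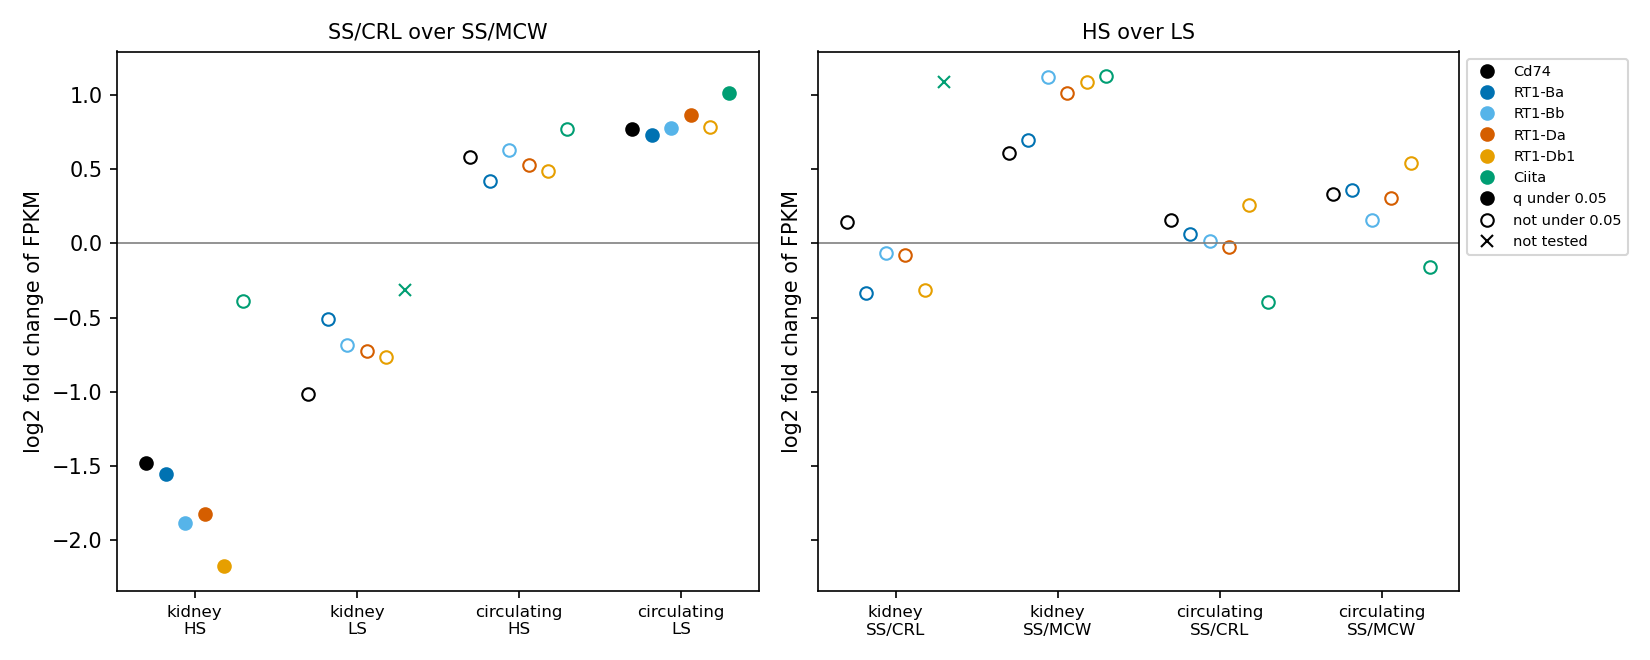
Log2 fold change of FPKM for the 6 class II genes, SS/CRL over SS/MCW on each chow (left) and HS over LS in each rat type (right), in kidney and circulating cells; filled points have q under 0.05 in the authors' deposited tables, open points do not, and crosses were not tested. SS/CRL over SS/MCW lies between -2.17 and -0.39 in kidney on HS and between 0.73 and 1.01 in blood on LS.

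The rat-type effect was compared between kidney and blood, a test added after these values were seen. On HS the difference of log2 fold changes, kidney minus blood, was negative for 6 of 6 genes. It was -2.51 for RT1-Bb (95% interval -3.77 to -1.25), -2.35 for RT1-Da (-3.60 to -1.11), -2.07 for Cd74 (-3.38 to -0.75), -2.66 for RT1-Db1 (-4.65 to -0.66) and -1.97 for RT1-Ba (-3.46 to -0.48). For Ciita it was -1.16 (-3.38 to 1.07). None passed after adjustment over all gene models, where the lowest adjusted p was 0.103 for RT1-Bb and 0.0544% of 12862 gene models passed, while 5 of 6 had an unadjusted p under 0.05 against 2.38% of all. Where the standard errors came from the deposited p instead, all but Ciita passed, with adjusted p from 0.000497 to 0.00605, against 2.79% of all gene models. For these 5 genes the deposited p in kidney was 5e-05, the lowest it takes, so their kidney standard errors followed from the fold change alone. The standard deviation of z, the difference over its standard error, was 1.22 over all gene models in this form. It was 0.72 with the standard errors of the test statistic.

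On LS the difference was negative for 5 of 5 tested genes, from -1.24 (RT1-Ba) to -1.78 (Cd74, 95% interval -3.45 to -0.12). None passed in either form of the test, with a lowest adjusted p of 0.082 from the deposited p, and 0.0087% of 11499 gene models passed with the standard errors of the test statistic. The median difference of the class II genes was -2.21 on HS and -1.55 on LS, against -0.04 and -0.06 over all gene models.

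High salt was compared with low salt within each rat type and tissue. In kidney of SS/MCW rats all 6 values were higher on HS, but none was called, where 0.433% of 19385 gene models were. RT1-Bb had 143 FPKM on HS and 65.7 FPKM on LS, a log2 fold change of 1.12, with an unadjusted p of 0.00675 and q 0.471 in the authors' deposited table. RT1-Da (282 against 140.0 FPKM, 1.01) and RT1-Db1 (87.2 against 41.0 FPKM, 1.09) also had an unadjusted p under 0.05 in the authors' deposited table. Cd74 had 959.7 against 631 FPKM (0.61), RT1-Ba 48.6 against 29.9 FPKM (0.70) and Ciita 1.45 against 0.665 FPKM (1.13). The T cell genes Cd4 and Ptprc rose in that comparison, of 14 T cell genes tested with a median log2 fold change of 1.09. None of 12 macrophage gene models was called (median 0.57). Summed levels were higher on HS for both lists, at 1069 against 529 FPKM for macrophage genes and 1055 against 611 FPKM for T cell genes. Their part in the class II values was not tested. The HS group here is the one that stood above SS/CRL kidney pools, so the 2 comparisons share its libraries.

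In kidney of SS/CRL rats none of 5 tested class II genes was called between HS and LS, where 5.51% of 20501 gene models were. Cd74 had 345 FPKM on HS and 312 FPKM on LS, RT1-Bb 39.0 and 40.8 FPKM, RT1-Da 80.3 and 84.9 FPKM, RT1-Ba 16.6 and 20.9 FPKM and RT1-Db1 19.5 and 24.2 FPKM. Their log2 fold changes lay between -0.33 and 0.15, and none had an unadjusted p under 0.05 in the authors' deposited table. Ciita had 1.11 against 0.523 FPKM and was not tested. In the same comparison Lgmn fell and Cst3, the cathepsin inhibitor gene, rose among the antigen processing genes (502 against 314 FPKM).

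In blood the salt comparisons called no class II gene in either rat type, where 0.67% of 17169 gene models were called in SS/CRL and 0.107% of 16885 in SS/MCW. In SS/CRL blood the log2 fold changes lay between -0.40 (Ciita) and 0.26 (RT1-Db1). In SS/MCW blood they lay between -0.16 (Ciita) and 0.54 (RT1-Db1, 10.7 FPKM on HS against 7.32 FPKM on LS), and only Cd74 (129.9 against 103 FPKM) had an unadjusted p under 0.05 in the authors' deposited table, 0.0443.

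No class II gene passed the test of the difference between salt effects. In kidney the salt effect of SS/MCW minus that of SS/CRL had a median of 1.09 over 5 tested genes, all positive, with 95% intervals that included 0, such as -0.62 to 3.00 for RT1-Bb, and adjusted p of 1.00. There 0% of 16429 gene models passed with the standard errors of the test statistic, so that form of the test cannot tell whether the salt effects were alike. In blood the same difference had a median of 0.26 over 6 genes and 0.0367% of 16360 gene models passed. The salt effect in kidney minus that in blood had a median of -0.09 in SS/CRL and 0.63 in SS/MCW. There 0.034% of 11761 and 0.00801% of 12479 gene models passed, none of them a class II gene. With standard errors from the deposited p, 0.365% of gene models passed for the kidney difference, SS/MCW minus SS/CRL, and again no class II gene. In that form RT1-Bb, RT1-Da and RT1-Db1 had unadjusted p of 0.0124, 0.0237 and 0.0376, and adjusted p of 0.46, 0.561 and 0.672. RT1-Ba and Cd74 had unadjusted p of 0.0826 and 0.431.

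Age was compared in SS/MCW rats on LS. In kidney none of 5 tested class II genes was called between 10 and 7 weeks, where 1.07% of 18869 gene models were. Cd74 had 630.4 FPKM at 10 weeks and 415 FPKM at 7 weeks and RT1-Ba 29.9 and 20.7 FPKM, log2 fold changes of 0.60 and 0.53. RT1-Bb, RT1-Da and RT1-Db1 lay between 0.09 and 0.15. C1qb rose to 43.4 FPKM at 10 weeks, against 7.28 FPKM at 7 weeks, as the only one of 12 macrophage gene models called. In blood none of 6 was called, where 1.94% of 17103 gene models were, and the log2 fold changes lay between -0.31 (Cd74, 103 against 127 FPKM) and 0.33 (Ciita, 0.479 against 0.381 FPKM).

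The genes whose level followed Cd74 most closely were named from Pearson's r of log2(FPKM + 1), as a description over group values that share a tissue and rat types. Over the 10 groups the 5 gene models most like Cd74 outside the set were Tyrobp (r 0.987), the DAP12 adaptor gene of myeloid and natural killer cells, Oasl (0.982), Clec10a (0.978), a lectin of macrophages and dendritic cells, Fcer1g (0.977), the Fc receptor gamma chain gene, and Lmo2 (0.976). Tyrobp had 52.7, 48.4, 205, 161 and 53.0 FPKM in kidney of SS/CRL HS, SS/CRL LS, SS/MCW HS, SS/MCW LS 10-week and SS/MCW LS 7-week rats. In blood it had 34.8, 25.1, 13.7, 11.9 and 13.5 FPKM, above SS/MCW in both SS/CRL groups as for class II. Within the set RT1-Bb (0.988), RT1-Da (0.981) and RT1-Db1 (0.981) followed Cd74 as closely, RT1-Ba less (0.913, rank 255) and Ciita least (0.664). These values hold the gap between kidney and blood: within the 5 kidney groups RT1-Ba, RT1-Bb, RT1-Da and RT1-Db1 had r of 0.945 to 0.956, at ranks 217 to 311, and RT1-Ba was no lower than the others. Of 10612 gene models compared, 401 had r over 0.9.

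Within the 5 kidney groups the most like were TNFRSF18, Rfc4, MANF, Sh3bgrl3 and Clec10a (r 0.998 to 1.00), and within the 5 circulating groups Sipa1l3, Cyb561a3, Gga2, Faim3 and GGTA1 (0.984 to 0.996). Faim3, the IgM Fc receptor gene, had 18.1, 15.4, 10.1, 8.27 and 11.8 FPKM in blood in the order given above. With 5 points 608 of 10138 gene models in kidney and 81 of 7571 in blood had r over 0.9. By rank correlation 3 of the 5 genes over 10 groups were still among the top 5. Within kidney all 5 named genes had a rank correlation of 1.0, which 250 gene models shared, so ranks cannot order them. Within blood the lowest rank correlation of the 5 named genes was 0.9, and 34 gene models tied at the highest value.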

How the data were processed

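Per the submitters' processing notes, the tools were cutadapt, Trim Galore 0.2.5, TopHat, TopHat2 2.1.1, Cufflinks 2.2.1 and Cuffdiff, with build rn5. Per the file headers, each of the 15 deposited tables gives the authors' FPKM, 1 value per group, with a test statistic (a signed score), a p-value and a q-value for each gene model. Values per pool were not used here, so no level has a standard deviation and the precision that depth gives is unknown. Nothing says how the pools of a group were kept apart, so it is not known whether the p-values measure the spread between these pools. Reads of SS alleles that differ from rn5 may have aligned poorly, and the part of this in the levels was not tested.

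Tables were oriented as SS/CRL over SS/MCW, HS over LS, 10 over 7 weeks or kidney over circulating. Fold changes on the log2 scale used the deposited FPKM with no pseudocount, since a spreadsheet had altered part of the deposited fold change column. A call needed status OK and q under 0.05. Differences of effects were tested by a z whose standard errors were the log2 fold change over the test statistic, with Benjamini-Hochberg adjustment over all gene models. The procedure was run on simulated data drawn with these same standard errors, so that run could not show whether they were right. In the real data the standard deviation of z over all gene models was 0.61 for the kidney salt effects, SS/MCW minus SS/CRL. It was 1.49 for the SS/MCW salt effects, kidney minus circulating. Alternatives were a stricter q (0.01), FPKM minimums of 1 and 5, a pseudocount of 1, centring on the median gene model, p recomputed from the test statistic, and standard errors recomputed from p. The 2 differences of rat-type effects were added after seeing the data.

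Members, lists and tests were chosen with earlier results of these data known. Named were all members, up to 4 called genes of a pathway list with the largest changes, and a set list that included Ctss, Ifi30, Rfx5, Ifng, B2m, Ms4a1, Csf1r, C1qb, Cd3e, Cd4 and Ptprc. Cd79b, Pax5, Blnk, Cd3d, Itgax, Clec10a, RT1-DOa and RT1-Db2 were named after their values were seen. Promoters are RefSeq's on GRCr8, and no coordinate was moved between builds. Tools were Python 3.11.15 with numpy 2.4.6, pandas 2.3.3, matplotlib 3.10.9 and scipy 1.17.1.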

Additional observations from a re-analysis of the deposited data

How the results depend on the processing

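A minimum of 1 FPKM left all 15 counts of called class II genes within 1.5 times their main value. In the circulating comparison of SS/CRL with SS/MCW on LS the count of 5 became 0 with a q under 0.01, 0 with a normal p from the test statistic and 0 with that p after recentring. In the kidney comparison of the rat types on HS the count of 5 became 0 with the normal p and 0 with the recentred one, and stayed at 5 with a q under 0.01. Between kidney and blood, the counts of 3 for SS/CRL on LS and 2 for SS/CRL on HS became 0 under each of these 3 settings, and the count of 5 for SS/MCW on LS at 10 weeks became 3 with the normal p and 3 with the recentred one. The normal p alone gave each of these counts, and recentring was not run with the deposited p. The other 10 counts kept within 1.5 times under these settings. Over all gene models the normal p left 22 calls against 1299 for the rat types in kidney on HS, and 11 against 92 in blood on LS. The cause was not tested. For the difference of rat-type effects on HS, 5 genes passed with standard errors from the deposited p and 0 with those of the test statistic; the other 5 differences passed no class II gene in any form. Between kidney and blood of SS/MCW rats on HS the share of higher calls was 73.0% with the recentred normal p, 63.4% with the normal p alone and 62.5% with the deposited q, and the median of gene models with at least 5 FPKM lay at -0.23 to -0.15 in the comparisons of kidney with blood. No called log2 fold change turned its sign on subtracting that median or with a pseudocount of 1. Rank correlation kept 3, 0 and 0 of the 5 genes most like Cd74 over all, kidney and circulating groups, with 6, 250 and 34 gene models tied at the highest value. The 5 genes named in kidney were among the 250 tied, so their count of 0 reflects only how the tie was cut. No paired analysis was possible because the tables hold 1 FPKM per group, although pool numbers are shared between tissues, and for the same reason no pool could be left out.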
